A study of Mus musculus with 21 samples.

Results

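Control granulocyte-macrophage progenitors (GMP) were compared with control LSK cells, which are bone marrow cells gated as lineage-negative and positive for Sca-1 and Kit, a fraction that holds stem and multipotent cells. The comparison takes 5 control GMP arrays and 6 control LSK arrays, chosen by the cell type and genotype in the sample titles and labels. These are 11 of the 21 arrays in the series. Control mice were C57/BL6 with the genotype Dot1 wt/wt x Mx-Cre. The other arrays, used for the same step in a second genotype, are 4 GMP and 6 LSK arrays of Dot1l fl/fl x Mx-Cre mice, in which both Dot1l alleles are deleted by Cre. All groups carry Mx-Cre, a transgene driven by the interferon-inducible Mx promoter, and mice were injected with pIpC, a double-stranded RNA mimic that switches this promoter on. So the control cells are those of an animal with Cre and an injection that triggers interferon, not of an untreated one, and the time after injection and the age are not given in the labels. Dot1l encodes a histone methyltransferase. RNA was taken from sorted cells with no culture step named.

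In normal marrow, stem cells give rise to multipotent progenitors, and these give rise to progenitors restricted to 1 or a few lineages. GMP form neutrophils, monocytes and other myeloid cells. Stem cells are kept by transcription factors such as HLF, MECOM, MEIS1 and GATA2, some multipotent cells already switch on lymphoid genes such as Flt3 and Dntt, and GMP make the proteases of primary granules under factors of the C/EBP family and PU.1. The question is which genes separate the control cells on either side of this step.

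Each value below is the log2 of a deposited array intensity, 1 probe set per gene, and a difference of 1 is a 2-fold change. A gene is called when limma's adjusted p is under 0.05 over all 18194 genes. Nothing in the labels ties an array to its own animal. The p-values therefore rest on array-to-array spread, part of which may be technical. The number of arrays limits the precision. In these bulk samples, fewer cells of a type and less RNA per cell cannot be told apart.

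The promoters of 6 granule and GMP genes are shown because their transcripts rose together. They are the 250 bases before the first listed start in RefSeq, build GRCm38.p6. Prtn3, which encodes proteinase 3, has chr10:79879417-79879666 on the plus strand, and Elane, which encodes neutrophil elastase, has chr10:79886062-79886311 on the plus strand. The start of Elane lies 6645 bases beyond that of Prtn3. Mpo (myeloperoxidase) has chr11:87793534-87793783 on the plus strand and Ctsg (cathepsin G) has chr14:56102575-56102824 on the minus strand. Ms4a3, a membrane protein of GMP, has chr19:11640852-11641101 on the minus strand, and Cst7 (cystatin F, an inhibitor of granule cathepsins) has chr2:150570165-150570414 on the plus strand. Capitals mark matches, on either strand, to GAGGAA, the form of site bound by PU.1, and to TTNNGNAA, a general form of C/EBP site.
Prtn3: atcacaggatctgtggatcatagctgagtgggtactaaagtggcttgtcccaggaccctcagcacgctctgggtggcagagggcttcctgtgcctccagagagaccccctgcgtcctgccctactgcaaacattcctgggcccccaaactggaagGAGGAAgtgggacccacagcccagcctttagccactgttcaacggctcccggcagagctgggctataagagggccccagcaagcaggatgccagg
Elane: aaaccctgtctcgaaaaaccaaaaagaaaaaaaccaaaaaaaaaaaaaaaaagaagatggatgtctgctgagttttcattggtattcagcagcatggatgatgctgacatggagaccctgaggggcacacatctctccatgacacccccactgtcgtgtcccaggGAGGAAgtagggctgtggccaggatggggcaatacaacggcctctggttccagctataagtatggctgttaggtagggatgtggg
Mpo: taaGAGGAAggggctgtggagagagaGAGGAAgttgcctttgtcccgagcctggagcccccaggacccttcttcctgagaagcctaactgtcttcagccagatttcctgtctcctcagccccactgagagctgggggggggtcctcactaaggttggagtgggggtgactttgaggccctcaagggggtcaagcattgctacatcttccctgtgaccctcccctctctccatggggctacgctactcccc
Ctsg: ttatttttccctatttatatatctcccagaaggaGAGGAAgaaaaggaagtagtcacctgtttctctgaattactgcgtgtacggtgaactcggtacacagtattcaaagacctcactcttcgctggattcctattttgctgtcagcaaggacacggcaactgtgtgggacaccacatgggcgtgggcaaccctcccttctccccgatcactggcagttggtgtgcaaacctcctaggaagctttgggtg
Ms4a3: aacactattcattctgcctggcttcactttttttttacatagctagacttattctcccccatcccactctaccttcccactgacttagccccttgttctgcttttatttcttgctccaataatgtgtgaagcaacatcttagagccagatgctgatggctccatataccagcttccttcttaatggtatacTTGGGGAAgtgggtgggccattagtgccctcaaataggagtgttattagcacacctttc
Cst7: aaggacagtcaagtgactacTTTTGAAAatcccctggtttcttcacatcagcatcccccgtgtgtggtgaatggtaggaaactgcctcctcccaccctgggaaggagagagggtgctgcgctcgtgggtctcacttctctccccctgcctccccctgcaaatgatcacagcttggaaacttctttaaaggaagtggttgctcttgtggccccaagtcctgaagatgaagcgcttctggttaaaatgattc
GAGGAA was found in Prtn3, Elane, Mpo and Ctsg. Its first base lay 95 bases before the start in Prtn3 and 85 bases before it in Elane. TTNNGNAA was found in Ms4a3 and Cst7. No match in this window says nothing of the factors elsewhere. Of 14453 tested genes with a promoter in the table, 22.7% held GAGGAA and 30.9% held TTNNGNAA. Among genes called higher in GMP the shares were 21.6% and 31.6%, near those of all genes, and among genes called lower they were 27.9% and 25.3%. Of the 12 primary granule genes with a promoter in the table, 6 held GAGGAA and 5 held TTNNGNAA. Also searched were TGTGGT, held by 5 of the 12 and 11.7% of all tested genes, and AGATAA, held by 0 and 7.47%. With so few genes these shares were not tested.

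The 6 genes given as markers of the 2 cell types separated the groups in the direction of their labels. Prtn3 had log2 levels of 11.86, 12.14, 13.01, 12.91 and 11.58 in the GMP arrays K1601, K1602, K1603, K1604 and K1581, and a lowest, median and highest level of 6.66, 7.79 and 8.96 in LSK. Every GMP array was above every LSK array. Ms4a3 had 11.29, 11.31, 11.25, 11.70 and 11.16 in GMP, in the same order of arrays, against 5.96, 6.57 and 7.15 in LSK. Cst7 had 10.60, 10.76, 10.85, 11.31 and 10.34 in GMP against 5.96, 6.38 and 6.74 in LSK. These differences were 22.8-fold, 27.1-fold and 21.04-fold. On the LSK side, Hlf, a stem cell transcription factor, ran from 10.77 through 11.16 to 11.52 in LSK and was 5.29, 4.56, 4.73, 6.20 and 4.79 in GMP. Flt3, the receptor tyrosine kinase of lymphoid-primed progenitors, ran from 9.52 through 10.24 to 10.57 in LSK and was 4.47, 5.48, 4.95, 6.54 and 4.14 in GMP. Dntt, the terminal transferase of developing lymphocytes, ran from 9.96 through 11.18 to 11.83 in LSK and was 4.45, 4.48, 5.80, 5.80 and 4.001 in GMP. The falls were 64.3-fold for Hlf, 33.6-fold for Flt3 and 64.6-fold for Dntt. Limma's adjusted p was between 9.56e-05 for Flt3 and 0.000398 for Ms4a3. These genes were given as markers with earlier results known, so they check the labels and are no separate finding.

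**Figure D1:**
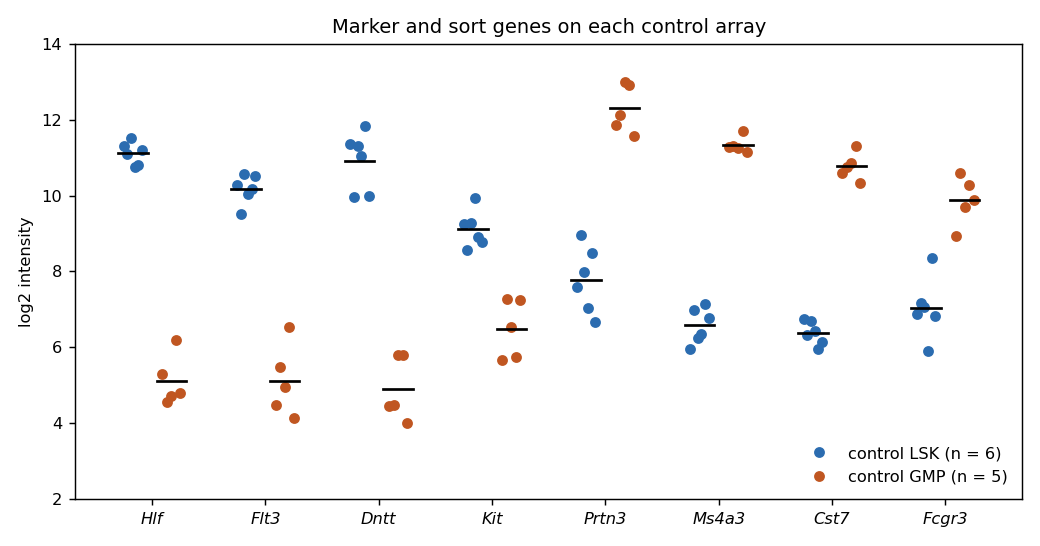
Log2 intensity of 6 marker genes and of the sort genes Kit and Fcgr3 on each control array, with points for arrays and bars for group means (6 LSK, 5 GMP). For each of the 8 genes every array of 1 group lies above every array of the other. Hlf, for example, is at 10.77 or more in LSK and 6.20 or less in GMP. Whether the GMP gate also selected for Kit is not stated, so its fall is no check of the sort.

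Of the surface proteins used to sort such cells, Fcgr3, an Fc receptor that marks GMP, rose 7.25-fold, from 7.02 ± 0.79 (SD, n = 6) in LSK to 9.88 ± 0.63 (n = 5) in GMP. Kit, the stem cell factor receptor used to gate LSK, fell by 2.63 on the log2 scale (SE 0.58), and its second probe set moved the same way. Cd34 was 10.22 ± 0.16 in LSK and 8.30 ± 1.26 in GMP, where the arrays ran from 6.30 in K1603 to 9.40 in K1604, with an adjusted p of 0.0801. The gates used for GMP are described in the labels only as standard, so whether they also selected for Kit or Cd34 is not stated. The lower Kit and Cd34 levels in GMP are therefore no check of the sort, and their cause was not tested.

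The arrays were not all alike. Lower quartiles of the log2 values were 3.96 ± 0.07 over the 6 LSK arrays and 4.26 ± 0.12 over the 5 GMP arrays (SD), a difference of 0.29 with no overlap (exact two-sided permutation p = 0.0022, the smallest that 462 splits can give). Upper quartiles differed by -0.23 (exact two-sided permutation p = 0.182). GMP arrays K1601 and K1603 had the narrowest spread, with upper quartiles of 6.95 and 6.96 where the other GMP arrays had 7.31 to 7.78, and K1603 had the lowest mean Spearman correlation with its own group, 0.810. LSK arrays correlated at 0.920 to 0.957, and K1601 and K1603 were a close pair at 0.980. Among the Dot1l-deleted arrays, which enter the estimate of spread, LSK K1272 stood apart at 0.649. Xist was high in both arrays of control numbers K1601 (12.67 in LSK, 13.42 in GMP) and K1602 (12.71, 12.19) and low in both of K1603 (4.75, 6.24) and K1604 (5.42, 6.16), but was 5.11 in LSK K1581 and 12.22 in GMP K1581. Genes of the Y chromosome did not always run against Xist. Kdm5d was 6.91 in LSK K1601 and 7.48 in GMP K1581, both with high Xist, and 3.62 in LSK K1553, where Xist was 13.22. Eif2s3y was 7.57 in LSK K1602. Whether such arrays hold RNA of both sexes was not tested. The part of these array differences in the results was not tested beyond the values given with each.

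In all, 2180 genes (12% of those tested) were called between control GMP and control LSK, 1279 higher in GMP (7.03%) and 901 lower (4.95%). Each list count below is to be read beside these shares. The falls were deeper than the rises: the median log2 fold change was -2.08 among genes called lower and 1.13 among genes called higher, 120 genes fell by more than 3 and 47 rose by more than 3. In 12 genes the fall was over 5, and 0 genes rose by that much. Groups did not overlap in 2679 genes (14.7%), 1355 of them called. The median over all genes was 0.29 in favour of GMP and 65.8% of genes were above 0.

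Where the genes sat on the intensity scale differed by direction. Among the genes below the median level of 5.55, 585 were called higher and 145 lower, and their median change was 0.39. Among genes at or above that level, 694 were called higher and 756 lower, with a median change of -0.05. Rises of dim genes were small, with a median of 0.86 among the called, and lie on the same side as the shift of the lower quartile between the groups. The files used here hold no detection calls, so a dim value cannot be told from background. When only genes at or above the median level were fitted, 1417 were called, 627 higher and 790 lower.

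**Figure D2:**
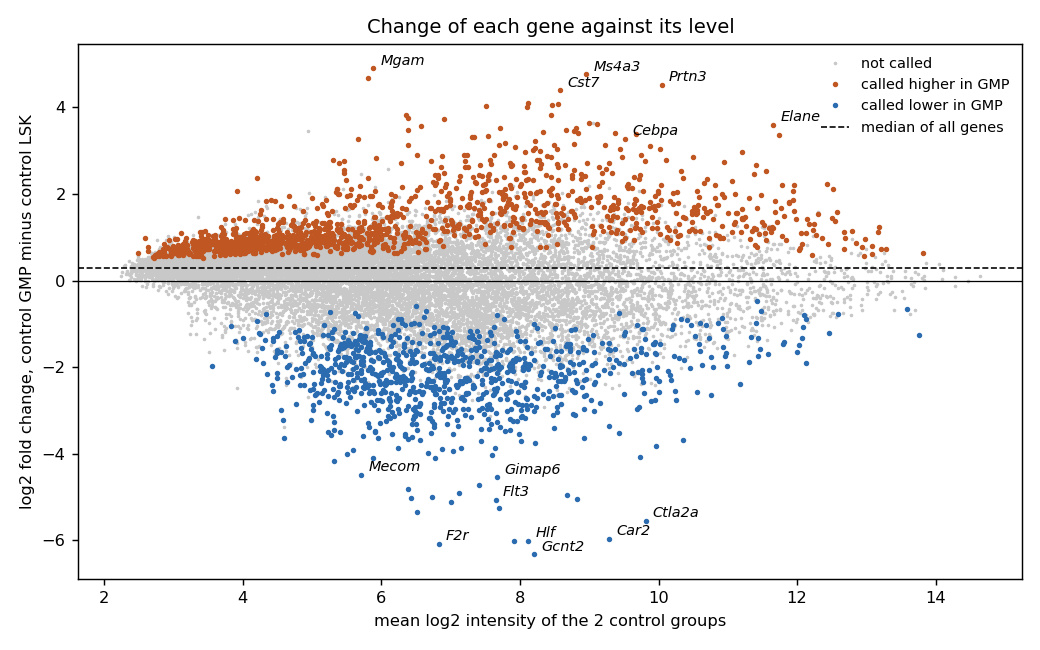
Log2 fold change of each gene, control GMP minus control LSK, against the mean log2 intensity of both groups, with called genes in colour and the median of all genes (0.29) as a dashed line. Dim genes called higher form a band of small changes on the left, and the deepest falls, Gcnt2, F2r and Car2 among them, have LSK levels far above that band.

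The count depended on the arrays in the fit. Without LSK K1601 it was 1111, without GMP K1603 1212, without LSK K1604 1325, without LSK K1603 1368, without GMP K1604 1452, and, with the Dot1l-deleted LSK array K1272 left out, 5531. With GMP K1601, GMP K1603 and Dot1l-deleted LSK K1272 left out together, a choice made after the data were seen, it was 2885, with 1868 higher and 1017 lower, and 1665 of the 2180 genes were called in both. As this fit called more genes over all, a list count that rose under it is no sign of stability of that list. Of the 50 largest changes without overlap, 25 each way, 50 were called in at least 30 of the 34 or 35 alternative fits that measured them, and 0 changed sign. Of all 185 named genes that were called, 54 were called in every such fit and 142 in at least 30. The least stable included Ccnd2 and Rnf2, called in 10 of 35, Bst2 in 12, Itgb1 in 14 and Esam in 15 of 34.

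Primary granule genes rose. The list holds the proteases and antimicrobial proteins that neutrophil precursors pack first, and genes tied to their maturation. Of 13 measured, 9 were called higher and 0 lower, with a median log2 fold change of 2.12 where the median of all genes was 0.29. The 9 include the given markers Prtn3, Ms4a3 and Cst7, which are no separate finding and add to the count and the median. Elane rose from 9.86 ± 0.71 in LSK to 13.12, 13.70, 13.46, 13.62 and 13.35 in GMP arrays K1601, K1602, K1603, K1604 and K1581. Its change was 3.59 (SE 0.54; adjusted p = 0.000402). Ctsg rose by 3.35 (SE 0.45), from a lowest, median and highest level of 8.58, 10.28 and 10.71 in LSK to between 13.19 and 13.65 in GMP. Nkg7, a granule membrane protein shared with cytotoxic cells, rose by 2.90 (SE 0.37) to between 11.11 and 11.25 in GMP. Mpo, the enzyme that makes hypochlorous acid, was already bright in LSK, at 12.56 ± 0.18, and rose by 1.23 (SE 0.18) to 13.79 ± 0.18. The groups did not overlap for any of these 4. Plac8 rose by 2.12 and Fcnb, a ficolin, by 1.44, the latter with overlapping groups. Ctsc, Srgn and Serpinb1a changed by 0.68, 0.44 and 0.48 without passing the test, and Lyz2 (lysozyme) by -1.16 (adjusted p = 0.0741). With the 3 arrays that stand apart left out, 11 of 13 were called higher, in a fit that called 1868 genes higher over all, against 1279.

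Late neutrophil genes did not follow. Of 15 measured genes of secondary granules and maturation, 0 were called higher and 2 lower, with a median of -1.08. Ltf (lactoferrin) fell by 2.97 (SE 0.65) from 9.58 ± 1.86 in LSK to 6.61 ± 0.85 in GMP, and Cd177, a neutrophil surface protein, fell by 2.30. These genes varied more among LSK arrays than between the groups. S100a9, a calcium-binding protein abundant in neutrophils, ran from 10.82 in LSK K1604 to 14.08 in LSK K1581 and from 10.54 to 11.23 in GMP. The mean level of the list, centred on the control arrays, was 2.72 in LSK K1581 and between -1.01 and 0.92 in the other LSK arrays, and between -0.64 and -0.25 in GMP. Without LSK K1581 the median was -0.43 and 1 gene was called lower. A lineage-negative gate is meant to remove mature neutrophils, and their part in this signal was not tested.

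Transcription factors of granulocyte and monocyte fate were led by the C/EBP family. Of 17 measured, 5 were called higher and 1 lower, with a median of 0.71. Cebpa, which is required to form GMP, ran from 6.42 through 7.80 to 10.00 in LSK and was 11.08, 10.57, 11.97, 11.68 and 10.48 in GMP arrays K1601, K1602, K1603, K1604 and K1581. It rose by 3.27 (SE 0.56; adjusted p = 0.00118). Cebpd rose by 2.76 (SE 0.39) and Cebpb by 2.39 (SE 0.52), and the second probe set of each was higher in GMP as well. The retinoic acid receptor gene Rara rose by 1.09, and Egr2, a zinc finger factor, by 1.37. Spi1, which encodes PU.1, was 8.27 ± 0.18 in LSK and 9.59 ± 0.62 in GMP, with no overlap, but its difference of 1.32 had an adjusted p of 0.0557. Irf8 (1.52) and Gfi1 (0.91), which favour monocytes and neutrophils, had overlapping groups and adjusted p of 0.167 and 0.286. Egr1 fell by 2.59, and it reached 9.95 in LSK K1581, the array with the highest mean of immediate early genes. Without the 3 arrays that stand apart, 8 of 17 were called higher, in a fit that called 1868 genes higher over all, against 1279.

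Cytokine receptors of blood progenitors were called in both directions. Of 25 measured, 2 were called higher and 3 lower, where 7.03% and 4.95% of all genes were. Csf2ra, the GM-CSF receptor alpha chain, rose by 1.52 (SE 0.46), and Tnfrsf1a by 1.13. Flt3, Kit and Il1r1, an interleukin 1 receptor that fell by 2.68, went the other way; the second probe set of Il1r1 is dim and did not fall. Csf1r, the macrophage colony-stimulating factor receptor, was 10.65, 11.21, 10.47, 10.74 and 11.31 in the GMP arrays in the order above. In LSK it ran from 3.28 in K1553 and 3.63 in K1604 to 10.82 in K1581. The difference of 3.63 (SE 1.47) had an adjusted p of 0.099, although a second probe set of Csf1r was lower in LSK with an adjusted p of 0.0157 over all probe sets. Csf3r, the G-CSF receptor, was 6.17 ± 0.51 and 5.38 ± 0.30 and did not pass. Fcer1g, the chain that Fc receptors share, rose by 2.62.

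Genes of other myeloid lineages rose in part. Of 14 eosinophil, basophil and mast cell genes, 4 were called higher and 0 lower. Hdc, which makes histamine, ran from 3.39 through 5.77 to 7.49 in LSK and was 9.37, 10.26, 9.63, 9.41 and 9.01 in GMP arrays K1601, K1602, K1603, K1604 and K1581, a rise of 4.04 (SE 0.67). Prg2, the eosinophil major basic protein, rose by 2.90, Prg3 by 1.71 and Epx, the eosinophil peroxidase, by 1.39, the last from 3.33 to 4.73, a low level. Of 17 monocyte and macrophage genes, 2 were called higher, near the share of 7.03% over all genes. The median of this list was 0.45, against 0.29 for all genes. F13a1, a coagulation factor chain made by monocytes, rose by 3.18 and the lysosomal glycoprotein Cd68 by 1.68. When the 3 arrays that stand apart were left out, 1 of the 17 was called. The list's mean level ran from -0.90 to 0.60 in LSK and from 0.03 to 0.74 in GMP. Of the phagocyte NADPH oxidase, Cyba rose by 1.75 and the proton channel Hvcn1 by 2.62, while Cybb (-0.47), Ncf1 (0.24) and Ncf4 (0.72) did not pass.

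The other large rises were of mixed function. Mgam, a maltase-glucoamylase, had the largest log2 fold change, 4.90 (SE 0.94), and also the widest spread: 4.66, 8.02, 11.77, 7.76 and 9.46 in GMP arrays K1601, K1602, K1603, K1604 and K1581, against 2.54 to 4.57 in LSK. Tmem178, a membrane protein, rose by 4.67 (SE 0.43; adjusted p = 1.25e-05), from 3.48 ± 0.31 to 8.15 ± 1.04. Mt1, a metal-binding metallothionein, rose by 4.10 (SE 0.53), while the related Mt2 changed by -0.00. Alas1, the first enzyme of heme synthesis outside red cells, rose by 3.06 (SE 0.31), from 6.68 ± 0.63 to 9.74 ± 0.70; the other 6 heme enzymes measured were not called. Morrbid, a long noncoding RNA of short-lived myeloid cells, rose by 4.02, Slpi, a secreted inhibitor of elastase, by 3.51, Gpx3, a glutathione peroxidase, by 3.74, and Tspo, a mitochondrial membrane protein, by 3.47. Of these genes, Mt2 alone had overlapping groups.

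Transcription factors of stem cells fell together. Of 20 measured, 9 were called lower and 0 higher, with a median of -1.42. The 9 include the given marker Hlf, which is no separate finding and also enters the list means. Mecom fell by 4.49 (SE 0.69), from 7.36, 7.94 and 8.49 (lowest, median and highest) in LSK to 3.88, 3.58, 3.61, 3.20 and 3.02 in GMP arrays K1601, K1602, K1603, K1604 and K1581. Its dimmer probe sets, at -0.00 and 0.40, did not fall. Meis1 fell by 2.97 and Gata2 by 2.92; Gata2 ran from 9.39 to 10.56 in LSK and from 5.38 in GMP K1601 to 8.29 in GMP K1602. Tal1 fell by 2.76, Prdm16 by 2.41, Erg by 2.34, Fli1 by 2.07 and Lmo2 by 1.58, of which Erg, Prdm16 and Fli1 had overlapping groups, and 3 dimmer probe sets of Prdm16 changed by 0.32, -0.29 and -0.42. Lmo2 was still bright in GMP, at 10.67 ± 0.64. Runx1 (-0.93), Lyl1 (0.44) and Gfi1b (-1.25) did not pass. The mean level of the list lay between 0.59 and 0.90 in LSK and between -1.08 and -0.81 in GMP. Without the 3 arrays that stand apart 10 of 20 were called lower, in a fit that called 1017 genes lower over all, against 901.

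Of 9 Hoxa genes 1 was called lower, where 4.95% of all genes were. Hoxa10 fell by 2.26 (SE 0.48) from 5.63 ± 0.74 to 3.37 ± 0.52, and its second, very dim probe set did not. Hoxa9, which keeps progenitors proliferating and is a target of MLL fusion proteins, ran from 9.37 to 10.48 in LSK and was 8.14, 9.37, 9.24, 8.44 and 7.65 in GMP. Its difference of -1.50 (SE 0.74) had an adjusted p of 0.16. Of 9 Hoxb genes, limma called 0, with a median of 0.27 and 0 at an unadjusted p under 0.05.

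Surface proteins of stem cells included some of the deepest falls. Of 23 measured, 7 were called lower and 0 higher. F2r, the thrombin receptor, ran from 7.80 through 10.22 to 10.74 in LSK and was 7.29, 2.91, 3.05, 2.54 and 3.15 in GMP, so that GMP K1601 alone was close to the LSK range. It fell by 6.08 (SE 0.78). Ctla2a, a cysteine protease inhibitor, fell by 5.55 (SE 0.61) from 12.59 ± 0.28 to 7.04 ± 1.63. Procr, the endothelial protein C receptor that marks stem cells, fell by 3.25 and Emcn, a sialomucin, by 3.21. Mmrn1, Itga6 and Esam fell by 2.05, 1.91 and 1.30, and a second probe set of Mmrn1 did not fall. Thy1 (-1.39), Cd27 (-1.25), Vwf (-1.18) and Slamf1 (0.27) did not pass. The count of 7 went to 5 when the 3 arrays that stand apart were left out. Outside the list, Angpt1, a ligand of the receptor Tie2, fell by 5.11, Adgrl4 by 4.95 and Myct1 by 4.91. Adgrl4 ran from 10.70 to 11.43 in LSK and was 3.61, 9.09, 4.07, 5.22 and 9.03 in GMP, so that GMP K1602 and K1581 were far above the other 3 GMP arrays.

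Lymphoid genes seen in multipotent progenitors fell as well. Of 19 measured, 10 were called lower and 0 higher, with a median of -1.71. The 10 include the given markers Dntt and Flt3, which are no separate finding. Beside Dntt and Flt3, Sox4 fell by 2.55, Lax1 by 2.51, Jchain by 2.35, Rag2 by 2.35, Mef2c by 2.18, Bcl11a by 1.81, Notch1 by 1.75 and Il12a by 1.11. Rag2, a subunit of the recombinase that cuts antigen receptor genes, ran from 4.62 to 8.70 in LSK and from 3.64 to 4.71 in GMP. Sox4 was 8.89, 7.73, 7.24, 4.88 and 7.01 in GMP arrays K1601, K1602, K1603, K1604 and K1581, all below the LSK range of 9.32 to 10.04. Igk and Igkv8-30, of the immunoglobulin kappa locus, fell by 5.25 and 5.04. The called probe set of Igk is of the kind that can match several transcripts, and the other 3 are dim and were not called. Of 14 genes of committed B cells limma called 0, with 3 at an unadjusted p under 0.05, and Cd79a and Pax5 changed by -0.47 and 0.97. Of 14 T and NK genes, 2 fell, Cd247 by 2.62 and Prf1 by 1.59, while Cd3e, Cd3d and Cd8a did not pass. A second probe set of Prf1 did not fall.

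GTPases of the Gimap family, best known from lymphocytes, lie side by side in the genome. Of 8 measured, 5 were called lower and 0 higher. Gimap6 fell by 4.55 (SE 0.59) from a lowest, median and highest level of 9.20, 10.01 and 10.78 in LSK to 5.49, 4.77, 6.11, 4.82 and 5.80 in GMP. Gimap8, Gimap9, Gimap1 and Gimap5 fell by 3.05, 2.92, 2.62 and 2.04, and Gimap4 (-1.37), Gimap7 (-1.14) and Gimap3 (-0.78) had the same sign. Without the 3 arrays that stand apart 6 of 8 were called, in a fit that called 1017 genes lower over all, against 901. Of 15 MHC class II and dendritic cell genes 3 were called lower and 1 higher, with a median of -0.06. Cd74, H2-Aa and H2-Eb1, of antigen presentation, fell by 2.99, 1.97 and 1.90, and Bst2 rose by 1.25. H2-Ob, a regulator of peptide loading outside the list, fell by 4.82.

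Erythroid and megakaryocyte genes were lower in GMP, in a few members each. Among all genes 4.95% were called lower. Of 17 erythroid genes 3 were called lower and 0 higher. Car2, a carbonic anhydrase, ran from 11.85 through 12.33 to 12.49 in LSK and was 6.10, 7.83, 4.88, 6.54 and 6.13 in GMP. It fell by 5.97 (SE 0.76), Car1 by 3.98 and the water channel Aqp1 by 2.45. Klf1 (-1.69) and Gata1 (-0.89) did not pass, at adjusted p of 0.0546 and 0.125, and Alas2 and Hba-a1 changed by -0.11 and 0.43. Of 19 megakaryocyte genes 4 fell: F2r, Plek by 3.71, Pf4 (platelet factor 4) by 2.61 and F2rl2 by 1.76. The count was 2 when the 3 arrays that stand apart were left out, and a second probe set of F2rl2 did not fall. Hemgn, a nuclear protein of early blood cells, fell by 5.02. Of 17 adhesion and homing molecules 5 were called lower, Itga4 by 2.68, Itga6, Cd47 by 1.70, Itgb1 by 1.62 and Esam, and 3 were when those arrays were left out.

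**Figure D3:**
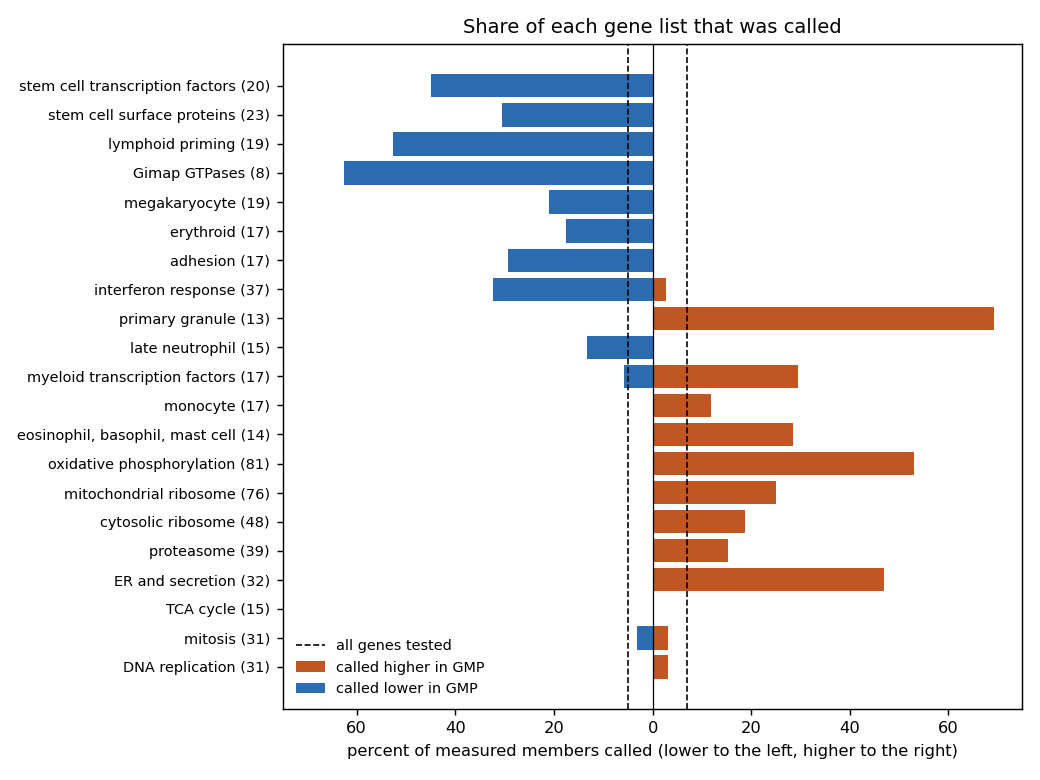
Percent of the measured members of each gene list (number in brackets) called higher (right) or lower (left) in control GMP than in control LSK, with dashed lines at the shares of all genes tested, 7.03% and 4.95%. The longest bars to the right are primary granule and oxidative phosphorylation genes, and the longest to the left are Gimap, lymphoid priming and stem cell transcription factor genes. Given markers are counted in some lists: Prtn3, Ms4a3 and Cst7 in primary granule, Dntt and Flt3 in lymphoid priming, and Hlf in stem cell transcription factors.

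Subunits of oxidative phosphorylation, the respiratory chain and ATP synthase of mitochondria, rose in large number. Of 81 measured, 43 were called higher and 0 lower, and 76 were above 0, with a median of 1.12. By complex, 18 of 35 subunits of complex I were called, 0 of 4 of complex II (2 at an unadjusted p under 0.05), 5 of 8 of complex III, 8 of 17 of complex IV and 12 of 17 of ATP synthase. Ndufb2, an accessory subunit of complex I, was 11.25, 8.56, 10.90, 10.98 and 11.27 in GMP arrays K1601, K1602, K1603, K1604 and K1581, against 4.57 to 7.75 in LSK. Its change was 4.08 (SE 0.72), but only 0.02 when the gene was read from the probe sets left after those that can match several transcripts were taken out. Uqcr11 rose by 3.40 and Atp5mpl by 3.38, both with no overlap. Ndufs1, a large core subunit, was -1.88 and did not pass (adjusted p = 0.0771). The mean level of the list lay between -1.13 and -0.13 in LSK and between 0.49 and 0.83 in GMP. Leaving out the 3 arrays that stand apart, limma called 42. Over 35 alternative fits the median stayed between 1.02 and 1.45 and the number called ran from 3 to 55.

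Proteins of the mitochondrial ribosome went the same way, 19 of 76 called higher and 0 lower, with a median of 0.98. Mrpl36, Mrpl54 and Mrpl20 rose by 2.72, 2.43 and 2.27. Of 15 enzymes of the citric acid cycle, which also sit in mitochondria, limma called 0, with a median of -0.13 and 2 at an unadjusted p under 0.05. Of 48 cytosolic ribosomal proteins 9 were called higher, among them Rps27l by 2.22 and Rpl22l1 by 1.67. Of 39 proteasome subunits 6 were called higher, where 7.03% of all genes were. Among them were Psmd9 by 2.04 (-0.63 by its probe set of highest variance), Psmb6 by 1.71 and Psma5 by 1.68. Mean levels of the mitochondrial ribosome list ran from -0.84 to 0.05 in LSK and from -0.09 to 1.10 in GMP, where K1601 was the lowest.

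Genes that differ in length differed in direction. The genomic span of a gene in the RefSeq table had a median of 10.9 kb among genes called higher, 40.3 kb among genes called lower and 20.2 kb among all 18143 with a span. In the shortest of 5 equal bins of genes, up to 6.25 kb, 12.1% were called higher and 1.63% lower. In the longest bin, from 64.0 kb, 5.04% were called higher and 8.60% lower. Among genes at or above the median level the median change went from 0.56 in the shortest bin to -0.52 in the longest, and from 0.59 to -0.39 without the 3 arrays that stand apart. In the Dot1l-deleted arrays without LSK K1272 the same medians were 0.08 and -0.22. With all Dot1l-deleted arrays the medians were found only over genes of every level. They were -0.01 in the shortest bin and 0.02 in the longest, so no fall with span was seen there. Over those genes they were 0.15 and 0.09 without LSK K1272, and 0.45 and 0.17 in controls. The oxidative phosphorylation list has a median span of 7.18 kb, the mitochondrial ribosome list 7.69 kb and the cytosolic ribosome list 3.45 kb, while the stem cell transcription factors have 42.6 kb. The part of span in these list results was not tested.

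Genes of the endoplasmic reticulum and secretion, which fold and export proteins such as granule enzymes, rose too. Of 32 measured, 15 were called higher and 0 lower, with a median of 1.08. Sdf2l1, which works with the chaperone BiP, was 9.26, 10.81, 10.84, 11.28 and 10.35 in GMP arrays K1601, K1602, K1603, K1604 and K1581 and 6.42 to 7.68 in LSK, a rise of 3.45 (SE 0.60). Ssr4 and Ssr2 of the translocon-associated complex rose by 2.72 and 2.45, Sec61b of the translocation channel by 2.67, and Spcs2 of the signal peptidase by 2.03. Xbp1, the transcription factor that drives expansion of this compartment, rose by 1.76. The chaperones Hspa5 (0.47) and Hsp90b1 (-0.07) did not pass. Without the 3 arrays that stand apart 20 of 32 were called, in a fit that called 1868 genes higher over all, against 1279.

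**Figure D4:**
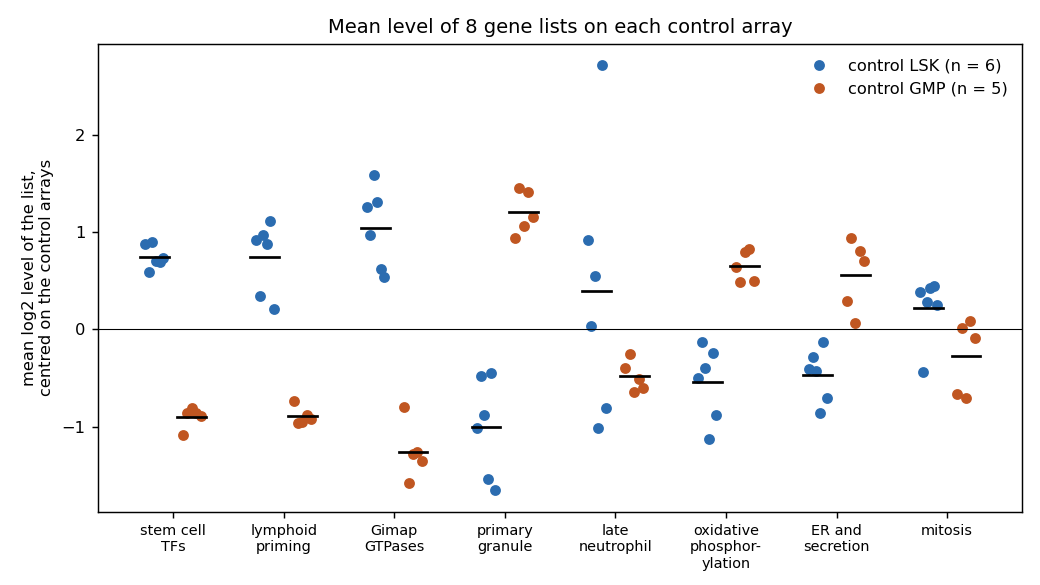
Mean log2 level of 8 gene lists on each control array, centred on the 11 control arrays, with points for arrays and bars for group means (6 LSK, 5 GMP). Stem cell factors, lymphoid priming, Gimap, primary granule, oxidative phosphorylation and secretion lists separate the groups, while late neutrophil genes are high in LSK K1581 (2.72) and mitosis genes overlap. The stem cell factor, lymphoid priming and primary granule lists include the given markers.

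Cell cycle genes showed few calls, where 7.03% of all genes were called higher and 4.95% lower. Of 31 mitosis genes 1 was called higher, the ubiquitin ligase gene Ube2c by 1.02, and 1 lower, the spindle motor Kif11 by 3.75. Of 31 DNA replication genes 1 was called, Cdc45 by 0.73. Mki67, Top2a and Ccnb2 changed by -1.06, 0.30 and 0.47 without passing. Mitosis list means were lowest in GMP K1601 and K1603, at -0.67 and -0.70, and between -0.09 and 0.09 in the other GMP arrays, so the median of the list, which was -0.53 over all arrays, was 0.01 without the 3 arrays that stand apart. Of 21 regulators of G1, Rbl2, a retinoblastoma relative tied to quiescence, fell by 3.39 (SE 0.54) and Ccnd2 by 0.47.

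Part of the interferon response genes fell in GMP. The control mice had received pIpC. Of 37 measured, 12 were called lower, 1 higher and 24 neither, with a median of -0.47. Iigp1, an interferon-induced GTPase, was between 3.89 and 4.36 in GMP and ran from 5.49 through 8.20 to 8.46 in LSK, a fall of 3.64 (SE 0.87). Ifit2 fell by 2.90, Irf9, a subunit of the interferon-activated complex, by 2.80, Oasl2 by 2.53 and Xaf1 by 2.46. Bst2 rose by 1.25 at an adjusted p of 0.0494. Ifit1, Irf7 and Mx1, common markers of the response, changed by -0.77, -0.12 and 0.52 and did not pass. List means lay between 0.00 and 0.59 in LSK and between -0.60 and -0.10 in GMP, so the groups did not overlap. Without the 3 arrays that stand apart 9 were called lower.

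Calls among genes of chromatin proteins were few for DOT1L and its partners and more frequent for the Polycomb and DNA methylation lists. Of 11 genes of DOT1L and its MLL partner proteins, 1 was called higher and 1 lower, where 7.03% and 4.95% of all genes were. Dot1l itself was 6.48 ± 0.30 in LSK and 6.74 ± 0.16 in GMP (adjusted p = 0.372), and its second probe set changed by -0.06. The sources used here do not place these probe sets inside or outside the deleted region. Mllt3, which encodes AF9, a reader that recruits DOT1L, ran from 8.45 through 9.26 to 9.65 in LSK and was 4.40, 6.93, 5.25, 5.78 and 6.25 in GMP, a fall of 3.44 (SE 0.80; adjusted p = 0.0103). Mllt1, which encodes the related ENL, rose by 1.31 with overlapping groups. Kmt2a (-0.85) and Men1 (-0.45) did not pass. Of 16 Polycomb genes, Phc3, Rnf2, Cbx2 and Suz12 fell by 2.65, 1.26, 1.23 and 1.18, and Phc2 rose by 2.70; a very dim probe set of Phc3 did not fall, and Rnf2 was 0.27 when all its probe sets were averaged. Of 7 DNA methylation enzymes, Dnmt3b, Tet1 and Dnmt3a fell by 2.28, 1.52 and 1.45. So 4 of 16 and 3 of 7 were called lower, where 4.95% of all genes were. Groups overlapped for every methylation enzyme. Dnmt3b and Tet1 were called in 23 of 34 alternative fits and Dnmt3a in 24 of 35. Of the Polycomb genes that fell, Phc3 was called in 34 of 35, Cbx2 in 32, Suz12 in 21 and Rnf2 in 10. When the 3 arrays that stand apart were left out, 3 Polycomb genes and 2 methylation enzymes were called lower.

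The deepest fall of all was in Gcnt2, a glycosyltransferase that branches poly-lactosamine chains. It ran from 10.69 through 11.42 to 11.94 in LSK and was 5.44, 6.43, 4.21, 3.80 and 5.32 in GMP arrays K1601, K1602, K1603, K1604 and K1581, a change of -6.33 (SE 0.81), or 80.3-fold. Of its 8 probe sets the other 7 changed by between -3.97 and 0.57, 6 of them downward. Vldlr, a lipoprotein receptor, fell by 5.34, Cd244a by 4.99, Rgs1, a regulator of G protein signals, by 4.72, Tsc22d1 by 4.08, the chromatin remodeller Chd2 by 4.02 and Zfp36l1, an mRNA decay factor, by 4.01. Tsc22d1 rests on 1 kind of probe set: with those that can match several transcripts left out its change was -0.05.

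Across called genes, other probe sets mostly pointed the same way. Of 2460 other probe sets of 1241 called genes, 80.2% had the same direction, and of the 1247 at or above the median level 88.0% did. Among genes that were not called the share was 68.9%. The 65.8% of genes above 0 is a share of signs, not of agreement, and the agreement it alone would give was not computed. Called neighbours in the genome formed 18 runs of at least 3 measured genes that moved the same way, 12 higher and 6 lower. The number of runs that calls spread at random would give was not computed, so the count by itself shows no clustering. Plppr3, Prtn3 and Elane formed 1 such run, with rises of 1.32, 4.51 and 3.59. Tyrobp, Hcst, Nfkbid and Aplp1 rose by 2.20, 2.09, 1.48 and 0.76, and Tyrobp and Hcst encode adaptors of immune receptors. F2r, Iqgap2 and F2rl2 fell by 6.08, 2.29 and 1.76, and Med12l, Gpr171 and P2ry14 by 3.49, 3.24 and 3.91. Some of these genes overlap or lie close enough that a probe set of 1 may read transcripts of another.

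The same step was measured in Dot1l-deleted arrays. Their levels do not enter the control fold changes, but their spread enters the control test. The genes called in controls were therefore chosen partly with these arrays. There limma called 26 genes (0.143%), and 110 without LSK K1272. Of the genes called higher in control GMP, 73.0% were also higher in Dot1l-deleted GMP, and of those called lower 74.7% were lower, while 55.2% of all genes had the same sign in both. Without LSK K1272 these shares were 87.7%, 87.6% and 74.4%. The changes were smaller: the medians of genes called in controls were 0.31 and -0.68 in the Dot1l-deleted arrays without LSK K1272, against 1.13 and -2.08 in controls. Genes were chosen for passing in controls, which by itself favours a larger value there. Ms4a3 changed by 3.22, Cst7 by 3.15, Elane by 2.74 and Ctla2a by -4.63 in these arrays without LSK K1272, each with an adjusted p under 0.05, while Cebpa changed by 0.70 (adjusted p = 0.667).

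The difference of the step between genotypes passed the test in 6 genes (0.033%). Fdps, which makes farnesyl diphosphate for cholesterol and protein prenylation, rose by 3.48 (SE 0.38) in controls, from 4.64 ± 0.30 to 8.12 ± 0.68, and changed by -0.44 in Dot1l-deleted arrays. Emc8 and Wrap53 rose by 2.36 and 1.80 in controls and changed by -1.13 and -0.82 in the others. Dtx3l, a ubiquitin ligase, and Smurf2, which ubiquitinates TGF-beta signalling proteins, fell by 2.85 and 2.96 in controls and changed by 0.54 and 0.18. Fbxl12 fell by 1.43 and changed by 1.74. The adjusted p of the difference was between 0.0131 for Fdps and 0.0331 for Smurf2. When each array was left out in turn, the number of genes that passed ran from 1 to 21.

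**Figure D5:**
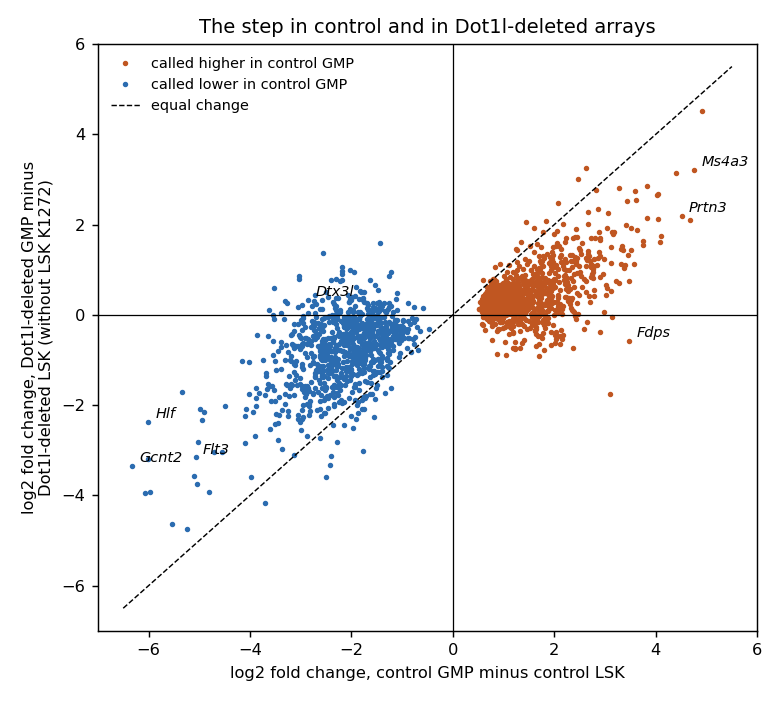
Log2 fold change of GMP minus LSK in control arrays (x axis) and in Dot1l-deleted arrays without LSK K1272 (y axis) for the 2180 genes called in controls, with the dashed line at equal change. Most points lie in the lower left and upper right of the plot, nearer to 0 on the y axis than on the x axis, and Fdps and Dtx3l lie on the other side of 0.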

How the data were processed

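The authors deposited 1 table of intensities on a linear scale for 45101 probe sets on 21 Affymetrix arrays. RMA is the tool named, per the submitters' processing notes, and its version is not given. Background correction, normalization and probe summary are therefore those of the authors. RNA came from sorted cells by Trizol and RNeasy columns, per the labels' protocols. The sources used here name no genome build for the probe sets and no scan batches.

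The log2 of each intensity was taken with no pseudocount. The platform annotation gave 34958 probe sets 1 gene symbol, 932 several and 9211 none. The first kind gave 18194 genes, each read from its probe set of highest mean level. Levels are not compared between genes. Groups came from the sample titles. Limma 3.58.1 in R 4.3.3 was fitted with 4 group means over all 21 arrays, with p-values adjusted over every gene by Benjamini-Hochberg and a threshold of 0.05, and was tested on simulated data. Array quartiles were compared by exact permutation.

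The comparison, gene lists and naming rule were chosen with earlier results of these data known. The rule names the genes marked as leads in 48 lists, the 25 top rises and 25 top falls of called genes without overlap, up to 6 called members of a list with the smallest p, members of runs of 3 or more neighbouring genes and of families, and genes called for the difference between genotypes. A few further members that did not pass were named after their values were seen. Lists are described by counts and medians, with no set test. Gene order, span and promoters came from RefSeq tables of GRCm38.p6, and 4 motifs were searched on both strands in the 250 bases before the start, including TGTGGT, found in 11.7% of genes called higher and 11.7% of all genes tested with a promoter. The motif AGATAA was in 8.18% and 7.47% of these. Alternatives were other scalings, probe set rules, filters, variance models, weights, blocks and each array left out. Some genes on the lists were not analysed here.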

Additional observations from a re-analysis of the deposited data

Results flagged for a closer look

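In 19 of 470 pairs of a named gene and a control group (4.04%), the highest or lowest array lay far from the others for the group's whole range, where chance gives about 1 group in 20. LSK K1602 was such an array for 4 genes. It was low for Angpt1 at 6.95 (the nearest array at 9.66), for Erg at 9.33 (11.04) and for the interferon-induced GTPase Iigp1 at 5.49 (7.88), and high for Gimap4 at 6.43 (4.56). LSK K1581 was low for the endothelial gene Myct1 at 7.21 (9.64) and for Psmd9 at 5.18 (6.15), and high for the T cell gene Cd3e at 4.01 (3.05), which is dim in every array. LSK K1553 was low for Lax1 at 4.59 (6.29) and for Mpo at 12.22 (12.53). Lsm8 was low in LSK K1604 at 7.39 (8.96) and Gstm2 high in LSK K1601 at 5.08 (4.02).

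Among GMP arrays, F2r, the thrombin receptor, was 7.29 in K1601 and at most 3.15 in the others. K1603 was high for Dtx3l at 6.56 (5.20) and low for Mef2c at 6.42 (8.23). Ndufb2 was low in K1602 at 8.56 (10.90). K1604 was high for Ms4a3 at 11.70 (11.31) and for Nlrc3 at 4.16 (3.81). K1581 was high for Emcn at 3.74 (3.36) and low for Psma5 at 10.50 (10.73).

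The step from LSK to GMP differed between genotypes for 6 named genes by the interaction term in limma. The control step minus the Dot1l-deleted step was 3.92 for Fdps, 3.49 for Emc8 and 2.62 for Wrap53, while Dtx3l, Smurf2 and Fbxl12 had -3.39, -3.13 and -3.17. Without LSK K1553, K1091 and K1422, limma called 1 gene for this difference.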

How the results depend on the processing

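The count of 2180 genes between control GMP and control LSK was within 1.5 times under a further quantile normalization (2033), centring on medians (1935), other probe set rules (1921 to 2441), trended and robust variances (2300) and Xist as a covariate (2055). It was 1417 with genes at or above the median level only, 91 against a 2-fold limit, 4439 in the compared groups alone and 7054 with array quality weights, whose estimate stopped before it converged. Each array left out in turn gave 1111 to 5531. For the Dot1l-deleted step (26 genes) the count was 520 with weights, 1 in the compared groups alone, 0 against the limit and 4 to 110 with arrays left out, and for the difference between genotypes (6 genes) 3 with probe sets averaged, 2416 with weights, 0 against the limit and 1 to 21. Leaving out 3 arrays together, added after the data were seen, gave 139 and 33 for these. The upper quartile difference of -0.23 was -0.33 over all probe sets, where its exact permutation p passed, and -0.35 to -0.14 with arrays left out, passing only without GMP K1602 (-0.35). These causes were not tested. Of the named genes, Hoxa10 changed sign to 0.089 without probe sets that can match several transcripts and Rnf2 to 0.27 with probe sets averaged, and with the probe set of highest variance Psmd9 to -0.63 and Lsm8 to -1.16.

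The K number in the titles was checked as a replicate block. Deviations of arrays with the same number correlated at -0.03, 0.00, -0.06, -0.07 and 0.03, which gives no pairing, although Xist matched in 4 of 5 control numbers. The Y-linked gene Kdm5d was high beside Xist in LSK K1601 and GMP K1581, so Xist alone does not settle the sex of an array. A fixed replicate block drops LSK K1553, K1091 and K1422, whose numbers occur in 1 cell type, and fits each genotype's step alone. It gave 1043, 0 and 0 genes for control, Dot1l-deleted and difference, where the same arrays without the block, added after the data were seen, gave 3434, 0 and 1. All 21 arrays with the number as a random replicate block (correlation -0.18) gave 1337, 10 and 2. Dim genes limit the rises: no detection calls were used.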

Other observations

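Smaller groups held further changes. Of 20 lysosomal genes 4 were called higher and 0 lower. Npc2, which carries cholesterol out of lysosomes, rose by 1.11 (SE 0.18) from 11.51 ± 0.28 (SD, n = 6) in LSK to 12.61 ± 0.14 (n = 5) in GMP, with no overlap. Cathepsins Ctsh and Ctsz rose by 2.50 and 1.94, and Gla, a galactosidase, by 2.26. Of 18 antioxidant and metal-binding genes, Mt1, Gstm1 (1.79), Gsr (1.30), which regenerates glutathione, and Gpx1 (0.86) rose, while Gclc, which starts glutathione synthesis, fell by 1.99. Gstm1 lies in a run with Gstm2 and Gstm4, which rose by 1.61 and 1.75; these transferases are close relatives in sequence, and whether their probe sets share signal was not tested. Of 12 Lsm genes, which encode rings that bind U-rich RNA in splicing and decay, 5 were called higher, with Lsm2 at 1.62 and Lsm8 at 1.81, although the probe set of Lsm8 with the highest variance gave -1.16.

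Glycolysis and cholesterol genes were called in both directions. Of 19 glycolysis genes 3 were called higher and 2 lower. Of 19 cholesterol genes 2 were called higher and 1 lower. Among all genes 7.03% were called higher and 4.95% lower. Of glycolysis, Tpi1, Hk3 and Pgam1 rose by 0.98, 1.05 and 0.85, while the glucose transporter Slc2a3 and hexokinase Hk1 fell by 2.75 and 2.005. Of cholesterol synthesis, Fdps and Mvd (1.28) rose and Srebf2, their common transcription factor, fell by 2.85 (SE 0.45), from 8.98 ± 0.54 to 6.13 ± 0.73. Among 19 imprinted genes, Plagl1 rose by 3.27 and Peg3 by 1.04 from a dim level, and Grb10 fell by 2.23. In the Bcl2 family Bad rose by 2.39. Mcl1, a survival factor of myeloid progenitors, was 8.75, 10.38, 4.23, 10.41 and 11.48 in GMP arrays K1601, K1602, K1603, K1604 and K1581 and between 11.15 and 11.51 in LSK. Its difference of -2.27 did not pass (adjusted p = 0.0663 by limma), and K1603 and K1601 were the lowest arrays.

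Of the 50 largest changes without overlap, 10 were not named with the groups above. Rgcc, Chst13, Dmkn, Fkbp1b, Tmem256, Mgst2, Cldn15 and Tifab rose by 4.04, 3.83, 3.82, 3.75, 3.64, 3.61, 3.56 and 3.43. Zfp760 fell by 4.16 and Nlrc3 fell by 4.10.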
